A study of Homo sapiens with 8 samples.

Results

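The genes described are 6 let-7-linked genes, HMGA1, HMGA2, LIN28B, IGF2BP1, IGF2BP2 and IGF2BP3, out of 23375 genes named in the count tables. They were chosen by name, and selected on RNA values of these 4 libraries that were already known, the counts and CPM of each line, together with the peaks near their start sites. For that reason their levels and peaks are given as a description, with no p-value. The series set PC9R, a gefitinib-selected derivative of PC9, against its parental line PC9, a human lung adenocarcinoma line with an activating EGFR mutation that is sensitive to the EGFR inhibitor gefitinib. PC9R was obtained from PC9 by 1 to 2 weeks of gefitinib, and cells of both lines were used at passages 8 to 12. Each line had 2 RNA-seq libraries, 1 list of DNase hypersensitive sites (DHS, open chromatin) and 1 list of H3K4me2 peaks, a histone mark of promoters and enhancers. PC9R is the only line with a gefitinib exposure in the labels, so drug and line cannot be told apart. Separate cultures are not stated for the RNA libraries.

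The let-7 microRNAs are small RNAs that pair through their seed with messages carrying a complementary site, mostly in the 3′ UTR, and lower their output. They are scarce in early embryonic cells and abundant in most adult tissues. LIN28B is an RNA-binding protein that blocks the maturation of let-7, and its own message is a let-7 target. HMGA1 and HMGA2 are small chromatin proteins that bind AT-rich DNA through AT hooks. IGF2BP1, IGF2BP2 and IGF2BP3 are KH-domain RNA-binding proteins that bind and stabilise messages, in part through N6-methyladenosine. HMGA2, LIN28B, IGF2BP1 and IGF2BP3 are known as oncofetal genes, expressed in the fetus, low in most adult tissues and expressed again in many tumours.

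The mature let-7 sequences are shown first because their seed defines the match that links the 6 genes. All 9 mature 5p members of the family in the RefSeq table (GRCh38.p14), let-7a, let-7b, let-7c, let-7d, let-7e, let-7f, let-7g, let-7i and miR-98, had the same bases 2 to 8, which are in capitals below. Outside the seed they differed in a few bases, as the 3 sequences show.
hsa-let-7a-5p: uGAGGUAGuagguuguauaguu
hsa-let-7i-5p: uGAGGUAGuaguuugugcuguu
hsa-miR-98-5p: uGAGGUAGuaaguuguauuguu

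A match was counted where the transcript strand of the 3′ UTR held the letters CTACCTC, the complement of the seed. Of 19246 protein-coding genes with a 3′ UTR, 9.67% held at least 1 such match. All 6 genes held at least 1. HMGA2, LIN28B and IGF2BP1 held 4 each, and HMGA1, IGF2BP2 and IGF2BP3 held 1 each. Only 12 genes of the annotation (0.0624%) had 4 or more, and these 12 included TRIM71 with 6, and HEMK1 and NR6A1 with 5. Known let-7 targets entered the list of 6 by name, so the matches are no independent evidence. The 4 matches of HMGA2 are shown in 5′ to 3′ order with the seed match in capitals, together with 1 from each of the other genes, all in GRCh37 coordinates.
HMGA2, match 1, chr12:66357078-66357100, plus strand: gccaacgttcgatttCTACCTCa
HMGA2, match 2, chr12:66358313-66358335, plus strand: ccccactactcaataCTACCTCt
HMGA2, match 3, chr12:66358725-66358747, plus strand: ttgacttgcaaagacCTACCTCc
HMGA2, match 4, chr12:66359578-66359600, plus strand: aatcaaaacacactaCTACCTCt
HMGA1, chr6:34213606-34213628, plus strand: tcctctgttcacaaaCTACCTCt
LIN28B, match 1, chr6:105526687-105526709, plus strand: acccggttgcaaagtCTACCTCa
IGF2BP1, match 1, chr17:47128423-47128445, plus strand: tgtgtgcgaagtaaaCTACCTCa
IGF2BP2, chr3:185362008-185362030, minus strand: aacacacagaagaagCTACCTCa
IGF2BP3, chr7:23351414-23351436, minus strand: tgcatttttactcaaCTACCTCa

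An A directly after the match, opposite base 1 of let-7, marks the stronger class of site. It followed 1 of the 4 matches in HMGA2, 2 of 4 in LIN28B and 3 of 4 in IGF2BP1. The single matches of IGF2BP2 and IGF2BP3 were followed by A, and that of HMGA1 was not. HMGA2 held its matches within a 3′ UTR of 2.999 kb, or 1.33 per kb, against 0.597 per kb over the 6.701 kb of IGF2BP1. The first match of HMGA2 began 21 bases into the 3′ UTR and that of LIN28B 44 bases into it. A longer annotated HMGA2 3′ UTR, of 7421 bp and ending elsewhere in the gene, held no match. Mature let-7 was not measured in these libraries. Each of the 12 let-7 family hairpin genes had at most 6 counts in any library, and their levels were not read.

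**Figure D1:**
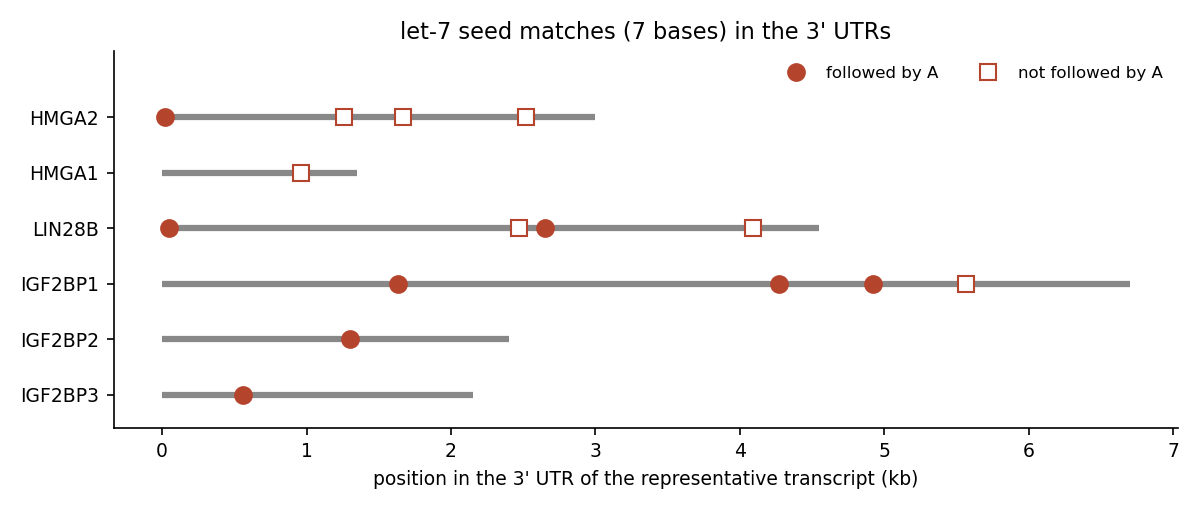
Positions of let-7 seed matches along the 3′ UTR (kb from its start) of the representative GENCODE transcript of each gene. Grey lines show the UTR, filled circles matches followed by A and open squares the others; HMGA2, LIN28B and IGF2BP1 carry 4 each and the other 3 genes carry 1.

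HMGA2 RNA was far lower in PC9R than in PC9, and IGF2BP2, IGF2BP1 and HMGA1 were lower by smaller amounts. IGF2BP3 was lower within each pair of libraries, but its 2 lines overlapped. LIN28B had no count in any library. The PC9R libraries held 32502455 and 16715426 counts, and the PC9 libraries 32515891 and 16013058, in the order of the labels; the first of each line was the deeper. Of 12660 genes tested with edgeR (TMM scaling, quasi-likelihood test, Benjamini-Hochberg adjusted p under 0.05), 32 were called, or 0.253%, with 24 higher (0.19%) and 8 lower (0.0632%) in PC9R. Of the 5 genes that passed the count filter, 0 were among them; 2 had an unadjusted p under 0.05 by edgeR, as had 7.27% of all tested genes, and DESeq2 called 2, against 2.81% of the genes it tested. As the genes were selected on these values, nothing is read from these counts. Because the deeper and the shallower libraries also differed for many genes within a line, values are given per pair. With library order as a term in the model, 20.8% of genes were called (9.57% lower in PC9R), and 3 of the 5, HMGA2, IGF2BP1 and IGF2BP2, all lower. For 4 of the 5, HMGA1 included, the libraries of the lines did not overlap, with PC9R the lower line, as for 14.9% of all tested genes. All 5 were lower in PC9R within both library pairs, as were 37.4% of all tested genes. The selection on these values bears on these counts too, also those with library order, and nothing is read from them.

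**Figure D2:**
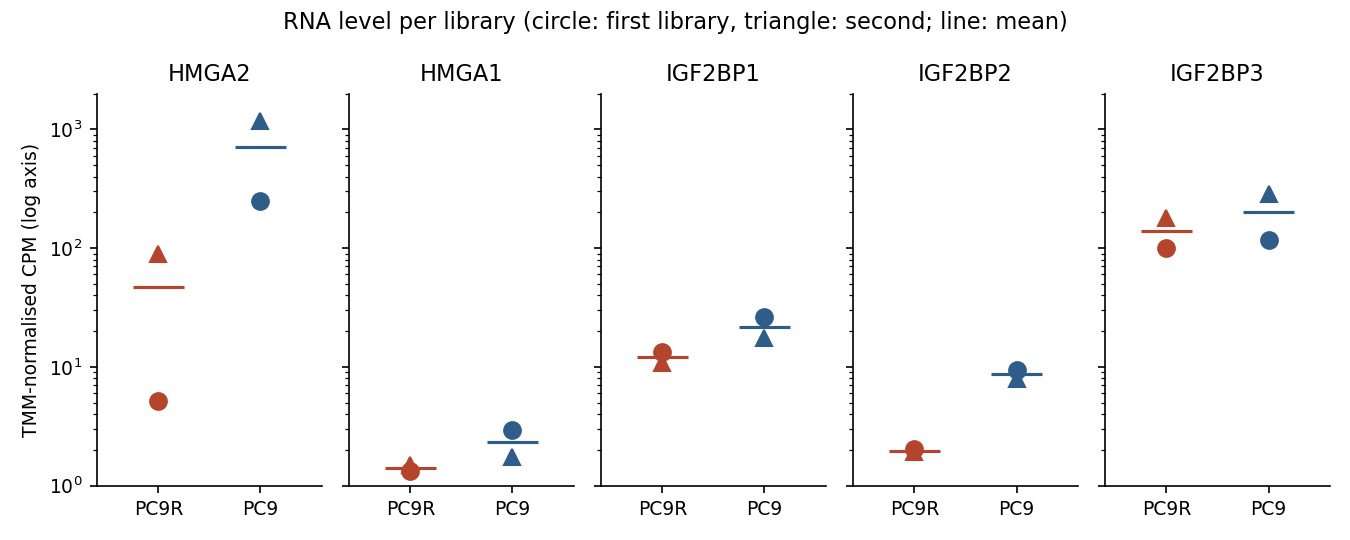
TMM-normalised CPM (counts scaled to a common library total, log axis) in each RNA library of PC9R (red) and PC9 (blue); circles are first libraries, triangles second libraries and lines the mean of 2. HMGA2 shows the widest gap between the lines and also the widest spread within a line, while the PC9R and PC9 libraries of IGF2BP3 interleave; LIN28B had no counts and is not drawn.

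HMGA2 lies at chr12:66218263-66360071 on the plus strand. It had 181 and 1505 counts in the first and second library of PC9R, against 7986 and 17601 in PC9. Scaled to a common library total by TMM (CPM), these were 5.15 and 89.5 CPM in PC9R, against 250.4 and 1175 CPM in PC9. Both PC9R libraries were below both PC9 libraries. The level in PC9R was 48.6-fold lower in the first libraries (95% counting interval 41.9 to 56.6) and 13.1-fold lower in the second (12.5 to 13.8). Fitted over the 4 libraries, the log2 fold change was −3.91 (SE 1.29), and −4.62 (SE 0.44) with library order in the model. Leaving out the second PC9R library gave −7.13, and leaving out the second PC9 library gave −2.42.

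The spread of HMGA2 within a line was itself among the widest of the tested genes. Its second library exceeded the first 17.4-fold in PC9R and 4.69-fold in PC9, while the median gene had ratios of 0.963 and 0.959. Only 0.0553% of tested genes in PC9R and 0.656% in PC9 had a ratio as high as that of HMGA2. By CPM it ranked 7933 and 2688 among the genes of the PC9R libraries, against 901 and 104 in PC9. The transcript has a GC content of 43.5%, and IGF2BP3, at 40.5%, was also higher in the second libraries of both lines. The genes of higher GC content, HMGA1 at 61.6%, IGF2BP1 at 49.1% and IGF2BP2 at 48.9%, had second-to-first ratios of 0.589 to 1.11. The part of GC content or depth in these ratios was not tested. One of the 2 HMGA2 accessions took nearly all counts, and the other had 0 and 3 counts in PC9R and 2 and 3 in PC9.

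IGF2BP2, on the minus strand at chr3:185360918-185542830, stands apart from its family as a gene also expressed in many adult tissues. It had 72 and 32 counts in PC9R, against 302 and 118 in PC9. Its levels were 2.05 and 1.90 CPM in PC9R, against 9.47 and 7.87 CPM in PC9, so the lines were well apart and each line's libraries were close. PC9R was 4.62-fold lower in the first libraries (3.56 to 6.06) and 4.14-fold lower in the second (2.78 to 6.33). The fitted log2 fold change was −2.13 (SE 0.63), and over 9 alternative settings it ran from −2.28 to −2.00.

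IGF2BP1, at chr17:47074747-47133507 on the plus strand, had 13.4 and 10.7 CPM in PC9R (471 and 180 counts), against 26.2 and 17.4 CPM in PC9 (834 and 260 counts). The lines did not overlap, but the higher PC9R and the lower PC9 library were close. PC9R was 1.95-fold lower in the first libraries (1.74 to 2.19) and 1.62-fold lower in the second (1.34 to 1.97). The fitted log2 fold change was −0.85 (SE 0.60). IGF2BP3, at chr7:23349828-23510110 on the minus strand, had 99.4 and 180.3 CPM in PC9R (3492 and 3033 counts), against 117.9 and 285.6 CPM in PC9 (3758 and 4279 counts). Its second PC9R library was above the first PC9 library. The gene was 1.19-fold lower in the first libraries of PC9R (1.13 to 1.24) and 1.58-fold lower in the second (1.51 to 1.66). Its fitted log2 fold change of −0.53 (SE 0.63) was smaller than its SE and became 0.23 without the second PC9 library.

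HMGA1, at chr6:34204650-34214008 on the plus strand, had 47 and 25 counts in PC9R, against 94 and 26 in PC9. These were 1.34 and 1.49 CPM in PC9R, against 2.95 and 1.74 CPM in PC9, a difference carried mainly by the first PC9 library. PC9R was 2.20-fold lower in the first libraries (1.54 to 3.20). In the second libraries it was 1.17-fold lower (0.648 to 2.11), an interval that includes no difference. The fitted log2 fold change was −0.74 (SE 0.67), and −0.31 without the first PC9 library. Its level cannot be read, since 5 of its 6 accessions were listed at 0 in every library. The same held in part for IGF2BP1 and IGF2BP2, where 1 of 2 accessions had counts. In every library, genes with several accessions took no more than 7.07% of the counts, and HNRNPC, an abundant splicing factor, was listed at 0 throughout. The folds above therefore compare only the reads that were counted.

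LIN28B, at chr6:105404982-105531207 on the plus strand, has 1 accession, with 0 counts in both PC9R and both PC9 libraries. A count of 0 allows up to 3 counts per library, or 0.0854 and 0.178 CPM on the TMM scale in PC9R and 0.0941 and 0.200 CPM in PC9. LIN28A, its paralogue, had 3 and 0 counts in PC9R, against 6 and 5 in PC9, and did not pass the count filter.

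**Figure D3:**
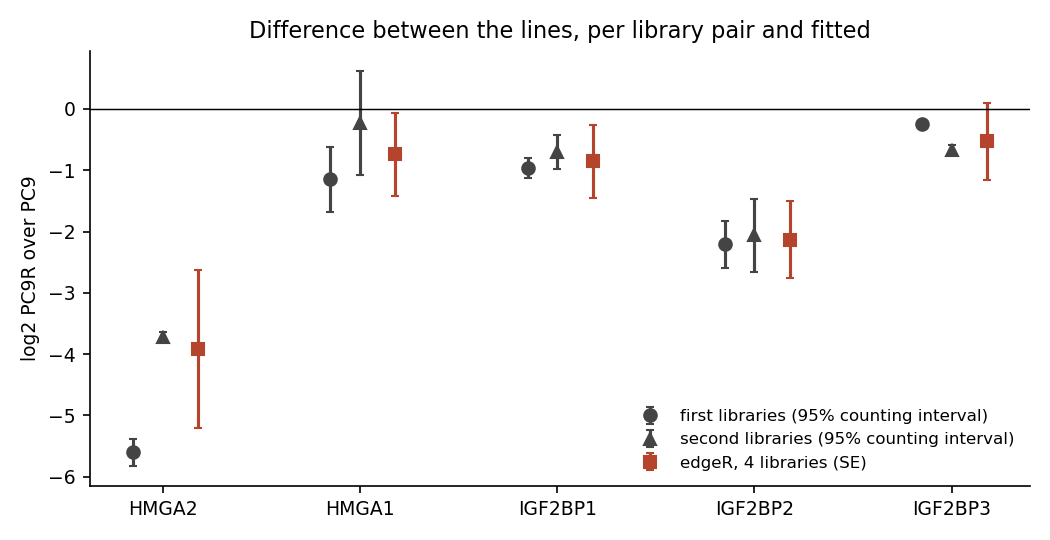
Difference between the lines as log2 of PC9R over PC9 for the 5 genes with counts. Black circles and triangles are the first and second library pairs with 95% counting intervals, and red squares are the edgeR estimate over 4 libraries with its SE; the HMGA2 pairs, at −5.60 and −3.71, lie far below those of the other genes.

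Levels can be set beside each other between genes only per transcript length. In PC9R, IGF2BP3 was highest at 23.3 and 42.2 CPM per kb, followed by HMGA2 at 1.25 and 21.7 CPM per kb, whose range overlapped that of IGF2BP1 at 1.52 and 1.22. The reads counted gave 0.697 and 0.774 CPM per kb for HMGA1 and 0.479 and 0.444 for IGF2BP2. As accessions of HMGA1, IGF2BP1 and IGF2BP2 were listed at 0, the places of these 3 genes in the order cannot be read as levels. HMGA2 also has 2 accessions, with nearly all counts on 1, whereas IGF2BP3 has 1 accession. Reads of HMGA2 left uncounted would change its place beside IGF2BP3. In PC9 the order of the upper pair was the other way round, with HMGA2 at 60.8 and 285.3 CPM per kb and IGF2BP3 at 27.6 and 66.8, and these ranges overlapped. IGF2BP1, at 2.97 and 1.97 CPM per kb, and IGF2BP2, at 2.21 and 1.84, also overlapped in PC9, and HMGA1 had 1.54 and 0.904.

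The genes nearest to HMGA2 in pattern over the 4 libraries were found from the distance between mean-centred log2 CPM values. They were MAOB, a monoamine oxidase, at a distance of 1.30, RPSAP52 at 1.90 and IL7R, the interleukin-7 receptor, at 2.02. MAOB had 2 and 36 counts in PC9R, against 93 and 163 in PC9, and IL7R had 7 and 17 in PC9R, against 108 and 147 in PC9. For the other genes the nearest patterns lay much closer, at distances of 0.0213 for IGF2BP1 (PSMB2), 0.0387 for IGF2BP3 (RAB11FIP2), 0.0486 for HMGA1 (MTIF2) and 0.106 for IGF2BP2 (KDM1A). The other genes nearest by this rule were H3C2 and PWP2 for HMGA1, SDHA and OAZ1 for IGF2BP1, H4C13 and SLCO2A1 for IGF2BP2, and UFM1 and PRKAA2 for IGF2BP3. With 4 libraries this likeness is a description.

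RPSAP52 is a pseudogene on the opposite strand whose annotated span, chr12:66151800-66220777, overlaps the 5′ end of the annotated HMGA2 gene over 2538 bp. It had 0 and 6 counts in PC9R, against 33 and 43 in PC9. Its log2 fold change was −3.66 (SE 1.35, adjusted p = 0.506 by edgeR), and −3.85 (adjusted p = 0.00923 by edgeR) with library order in the model. No exon of RPSAP52 overlapped one of the representative HMGA2 transcript. Whether counting used the strand is not stated, so reads of the overlapping pair may not be separable. On the other side of HMGA2, LLPH had 741 and 1137 counts in PC9R, against 935 and 1086 in PC9, a log2 fold change of −0.20 (SE 0.75). MSRB3, the nearest coding gene below HMGA2, was listed at 0.

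The 3′ end of IGF2BP3 overlaps that of MALSU1, an antisense gene of a mitochondrial ribosome factor, over 1521 bp of exon. MALSU1 had 2599 and 2374 counts in PC9R, against 2415 and 1531 in PC9, a log2 fold change of 0.27 (SE 0.58). The let-7 match of IGF2BP3 shown above lies outside that overlap. The tested coding neighbours of the other genes had log2 fold changes of −0.37 (HACE1, beside LIN28B), −0.30 (GIP, beside IGF2BP1), −0.08 (TRA2B) and 0.11 (SENP2, both beside IGF2BP2) and 0.28 (SMIM29, beside HMGA1). None of these neighbours was called.

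The chromatin lists differed in size, which bears on every count below. The PC9R list held 59600 DHS peaks, against 19648 in PC9. For H3K4me2 there were 117861 peaks of median width 395 bp in PC9R, against 85246 peaks of median width 546 bp in PC9. With 1 library per line and mark, none of these differences has a replicate check. Peak scores are the authors' own and were used only to rank peaks within a list.

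At the transcription start sites (TSS), the DHS lists and RNA went opposite ways for 4 of the genes. HMGA1, HMGA2, IGF2BP1 and IGF2BP2 had a DHS peak within 1 kb of the TSS in PC9R only, a class of 17.3% of 20136 protein-coding genes. IGF2BP3 had one in PC9 only (6.79% of genes). Its RNA was lower in PC9R within both library pairs, as for 37.4% of all tested genes, but its lines overlapped. Its fitted log2 fold change of −0.53 was smaller than its SE of 0.63. The PC9-only DHS class of IGF2BP3 rests on the window and the start used. Both lines had a DHS peak within 2 kb of the IGF2BP3 TSS, and within 1 kb when any annotated start counted. LIN28B had none in either line (51.4%). The 4 genes with a DHS peak in PC9R only were also those whose libraries did not overlap, all lower in PC9R. Among them, the level of HMGA1 cannot be read. RNA and peaks were both known at selection, and the PC9R DHS list is the larger. How many of all genes combine both traits was not computed, so nothing is read from this pairing. When the PC9R list was held to its 19648 highest-scored peaks, the PC9R-only class kept HMGA2 and IGF2BP1. HMGA1 and IGF2BP2 then had no such peak in either line.

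HMGA2 had the only DHS peak that covered a TSS base. It was 193 bp wide in PC9R, at chr12:66218253-66218445, spanned the TSS from −10 to +182 and ranked 7879 of 59600 by score (top 13.2%). A lower-ranked PC9R peak of 303 bp lay at +406 to +708 (top 92.7%). The only PC9 DHS peak within 50 kb of HMGA2 was 37593 bp upstream. The IGF2BP1 peak of PC9R, at chr17:47074819-47075028, lay at +72 to +281 in an exon and was in the top 16.4% of its list. Those of HMGA1 and IGF2BP2 lay 746 and 705 bp upstream, in the top 49.3% and 33.1%.

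H3K4me2 was found within 1 kb of the TSS in both lines for HMGA1, HMGA2, IGF2BP1 and IGF2BP2, the class of 65.9% of genes. The marked stretch was shorter in PC9R at each of them. At HMGA2 the peak over the TSS was 1381 bp wide in PC9R (−716 to +664), against 5319 bp in PC9 (−1124 to +4194). At IGF2BP1 it was 2166 bp wide in PC9R, against 5966 bp in PC9. Within 5 kb of the TSS, H3K4me2 peaks covered 2157 bases at HMGA2 in PC9R, against 6457 in PC9, a ratio of 0.334. The ratio was 0.363 at IGF2BP1, 0.371 at IGF2BP2 and 0.256 at HMGA1, which had 1508 bases in PC9R, against 5886 in PC9.

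Most genes had less H3K4me2 cover in PC9R, so these ratios were set beside all 13271 genes marked in both lines, whose median ratio was 0.614. Ratios as low as those of the 4 genes were found in 2.29% (HMGA1), 6.89% (HMGA2), 9.43% (IGF2BP1) and 10.2% (IGF2BP2) of these genes. Over the wider window of 50 kb the median ratio was 0.714. HMGA2, at 0.323, was then among the lowest 1.39%, IGF2BP2, at 0.429, among the lowest 5.68%, and IGF2BP1 (0.581) and HMGA1 (0.609) were nearer to the median. The genes were selected with these peaks known, and the 5 kb window was added after the peaks were seen. These ranks are therefore a description, and nothing is read from them.

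**Figure D4:**
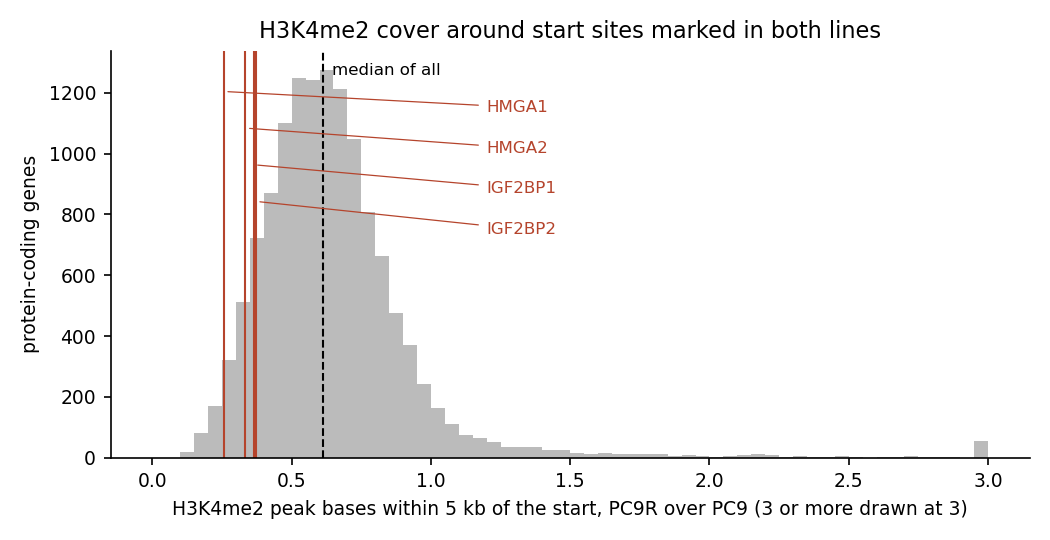
Histogram of H3K4me2-covered bases within 5 kb of the TSS, PC9R over PC9, over the 13271 protein-coding genes marked within 1 kb of the TSS in both lines. The dashed line is the median of 0.614, and the red lines at 0.256, 0.334, 0.363 and 0.371 are HMGA1, HMGA2, IGF2BP1 and IGF2BP2, all below it. The genes were selected with their peaks known, and this window was added after the peaks were seen.

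IGF2BP3 had the largest H3K4me2 domain of the 6 genes. In PC9R no H3K4me2 peak came within 1 kb of its TSS, the nearest being 1413 bp wide at +1298 to +2710, whereas in PC9 a peak of 7763 bp ran across the TSS from −3839 to +3923. That PC9 peak ranked 198 by score, in the top 0.232% of its list. H3K4me2 within 1 kb in PC9 only is a class of 1.24% of genes. The class rests on the window and the start used, since both lines had a peak within 2 kb, and within 1 kb of any annotated start. Within 5 kb, peaks covered 2933 bases in PC9R, against 9740 in PC9. DHS also lay at different places: 3 PC9R peaks stood at +1383 to +2461, within the PC9R H3K4me2 peak, and the PC9 peak stood at −318 to −144. A DHS 4 kb upstream, at −4267 to −4033 in PC9R and −4362 to −3925 in PC9, was the only one shared by the lines among the 24 PC9R and 7 PC9 DHS peaks within 50 kb of the 6 TSS.

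The IGF2BP3 promoter is shown because the chromatin of the lines differs across it. The RefSeq promoter of 300 bases matched GRCh37 at chr7:23510061-23510360, minus strand. The 107 bases in capitals lie in the PC9 DHS peak. The H3K4me2 peak of PC9 covered all 300 bases, and no PC9R peak of either kind touched them.
IGF2BP3 promoter: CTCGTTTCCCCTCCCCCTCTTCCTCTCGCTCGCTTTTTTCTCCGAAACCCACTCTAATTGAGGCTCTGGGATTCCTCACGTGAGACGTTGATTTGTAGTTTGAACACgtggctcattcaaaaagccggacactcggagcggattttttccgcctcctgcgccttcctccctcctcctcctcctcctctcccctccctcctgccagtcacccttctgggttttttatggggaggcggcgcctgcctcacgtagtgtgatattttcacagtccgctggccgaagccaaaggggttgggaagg

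**Figure D5:**
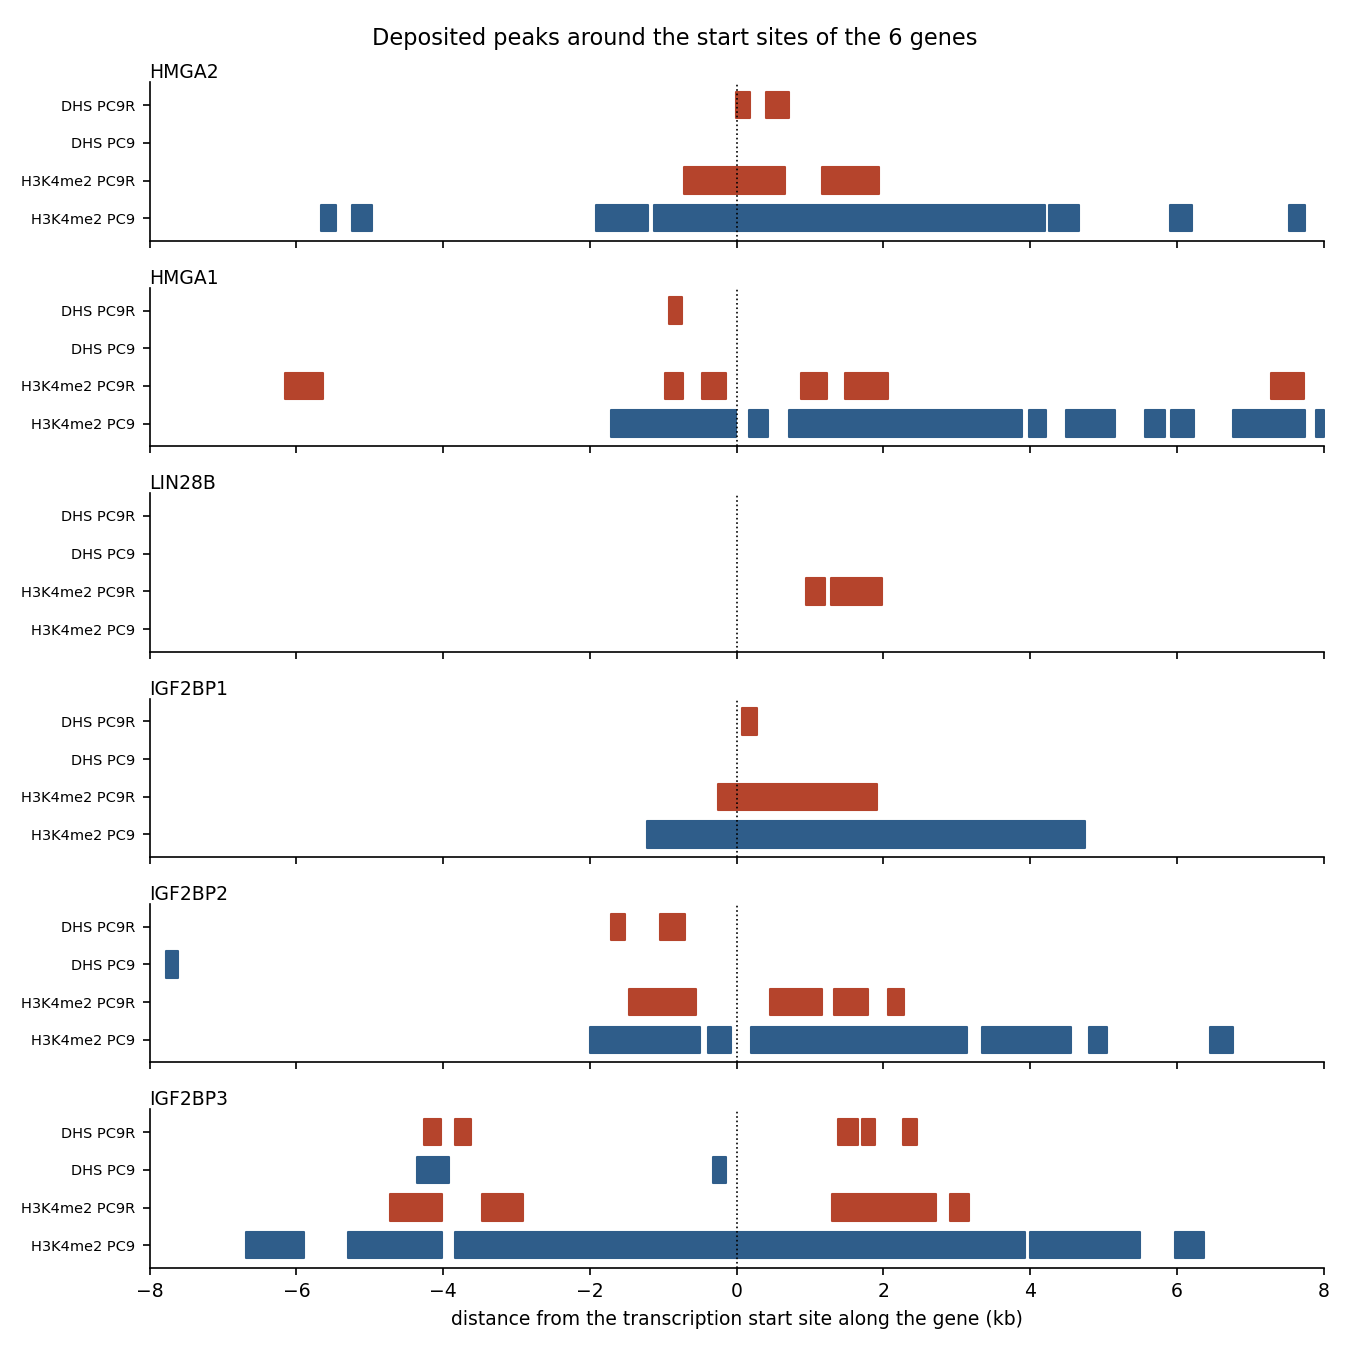
Deposited DHS and H3K4me2 peaks within 8 kb of the TSS (dotted line) of each gene, by distance along the gene in kb, with PC9R (red) above PC9 (blue) for each mark. H3K4me2 blocks are shorter in PC9R at HMGA1, HMGA2, IGF2BP1, IGF2BP2 and IGF2BP3, while DHS near the TSS of HMGA2, HMGA1, IGF2BP1 and IGF2BP2 appear in PC9R only.

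LIN28B went the other way in the H3K4me2 lists. It had 5 peaks, 2545 bases in all, within 50 kb in PC9R, against 0 in PC9. One, at +947 to +1201, placed the gene in the PC9R-only class of 4.1% of genes. The 5 peaks were 212 to 961 bp wide and stood between the top 43.1% and the top 67.6% of their list. Over the 6 genes, peaks within 50 kb covered 0.504 times as many H3K4me2 bases in PC9R as in PC9, but 3.26 times as many DHS bases. Over the whole lists, which also hold regions far from gene starts, these ratios were 0.845 for H3K4me2 and 2.99 for DHS. The DHS ratio of the 6 genes was thus close to that of the lists. For H3K4me2 within 50 kb of the TSS, the median ratio of the genes marked in both lines was 0.714, nearer to that of the 6 genes. That value is a median of single genes and not a sum. Held to equal list sizes, there were 5 DHS peaks in PC9R against 7 in PC9 (0.714 times), a small difference between single libraries.

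The wider pathway lists numbered 8, with 87 tested genes in all. Some concern let-7 itself. The others hold high mobility group, HMGA-linked, IGF2BP-bound, N6-methyladenosine and other oncofetal genes, so the pooled counts are not those of the let-7 pathway. With edgeR and no library-order term, 0 of the 87 were called; 7 had an unadjusted p under 0.05 (7.27% of all tested genes had), and DESeq2 called 2 (2.81% of all genes it tested). With library order in the model, 20 were called (22.99%), 2 higher and 18 lower in PC9R. Of all tested genes 20.8% were called, 11.2% higher and 9.57% lower in PC9R. The lists were chosen with earlier results of these data known, so the counts called per list are a description. The values below are from that model, in which the median of all tested genes was −0.01 on the log2 scale. A gene is said below to fall, rise or pass in PC9R only where that model called it. The count of each list is to be set beside the 20.8% of all tested genes. That model left 1 residual degree of freedom per gene, to which the quasi-likelihood test adds degrees of freedom shared across genes. Its p-values thus rest in part on the spread of other genes.

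Among the let-7 processing factors, 3 of 16 tested genes fell (18.75%, against 20.8% of all tested genes) and 0 rose in PC9R. The median log2 fold change over the list was −0.40. AGO1, an Argonaute that holds the microRNA, had 85.1 and 96.4 CPM in PC9R, against 197.4 and 285.6 CPM in PC9 (log2 fold change −1.39, adjusted p = 0.00282 by edgeR). AGO3 (−1.03) and KHSRP (−0.67), a protein that promotes let-7 maturation, also fell; the lines overlapped for AGO3. DICER1, which cuts the hairpin, had 3.96 and 3.92 CPM in PC9R, against 3.29 and 1.40 CPM in PC9, and did not pass.

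Of 21 tested other let-7 targets, 3 fell, 0 rose, and the median was −0.05. HIC2, a transcriptional repressor that is among the 12 genes with 4 or more matches, had 26.6 and 15.6 CPM in PC9R, against 82.5 and 50.9 CPM in PC9 (−1.67). CDC25A, a cell cycle phosphatase (−1.38), and NRAS, a RAS protein whose lines overlapped (−0.79), were the others. MYC, at 360.4 and 425.1 CPM in PC9R, against 475.4 and 344.2 CPM in PC9, overlapped between the lines, and CCND1, at 1009 and 987.8 CPM in PC9R, against 1519 and 1407 CPM in PC9, did not pass.

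Only 4 genes of the let-7 hairpin and host list were tested, of which 2 fell and 1 rose (median −0.53). MIR100HG, host of a let-7a hairpin, had 1 and 3 counts in PC9R, against 29 and 100 in PC9. WDR82, host of the let-7g hairpin, fell (−0.95), and HUWE1, host of let-7f and miR-98 hairpins, rose (0.71). A host gene's level is not that of the mature microRNA.

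Among 12 tested other high mobility group genes, 3 fell and 0 rose (median −0.48). These were HMGN5, a nucleosome-binding protein (5 and 4 counts in PC9R, against 38 and 30 in PC9), HMGB1, a DNA-bending protein whose lines overlapped (−1.11), and HMGXB3 (−0.76). Of 8 tested HMGA-linked genes, 2 fell and 1 rose (median 0.05). ERCC1, a DNA repair endonuclease subunit, had 11.05 and 8.50 CPM in PC9R, against 18.6 and 18.02 CPM in PC9 (−0.91). The other 2 were RPSAP52 and TWIST1, a mesenchymal transcription factor with 45 and 20 counts in PC9R and 0 in both PC9 libraries. TWIST1 is named here after its values were seen.

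Of the 10 IGF2BP-bound transcripts, 2 fell, 0 rose, and the median was −0.08. IGF2, a fetal growth factor, had 13.6 and 9.69 CPM in PC9R, against 37.6 and 19.2 CPM in PC9 (−1.23). H19, the imprinted RNA beside it, had 1048 and 455.9 CPM in PC9R, against 4535 and 851.5 CPM in PC9 (−1.51), and its lines overlapped. Both also stand in the list of other oncofetal genes, where 4 of 5 tested genes fell and 0 rose (median −1.23). The other 2 were SALL4, a stem cell transcription factor, at 7.52 and 2.44 CPM in PC9R, against 16.7 and 11.2 CPM in PC9 (−1.61), and TPBG, named after its values were seen, at 14.3 and 4.16 CPM in PC9R, against 31.9 and 10.3 CPM in PC9, with overlapping lines (−1.23). The fifth tested gene, CEACAM5, a cell adhesion glycoprotein named likewise, did not pass and was higher in PC9R, at 30.5 and 18.1 CPM, against 11.8 and 15.4 CPM in PC9 (0.82). Of that list, AFP, GPC3, PEG10, NANOG and PEG3 were listed at 0 in all 4 libraries. Of 16 tested m6A writers, erasers and readers, 1 fell, ZC3H13 of the writer complex (−0.79), and 0 rose (median −0.10).

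The marker lists were those of an epithelial line. All 8 epithelial markers were tested, and their summed level was 20116 and 11502 CPM in PC9R, against 25199 and 11099 CPM in PC9, and the median log2 fold change over the list was −0.14. CDH1 rose (0.65). The other 7 did not pass and went both ways, from −0.53 (KRT18) to 0.41 (CLDN4). Leukocyte markers summed to 17.4 and 13.6 CPM in PC9R, against 8.66 and 8.68 CPM in PC9, and only CD68 of 5 was tested (0.85). Endothelial markers summed to 46.8 and 20.1 CPM in PC9R, against 22.4 and 12.7 CPM in PC9, where CDH5 was the 1 of 3 tested that rose (0.91). Fibroblast markers summed to 65.2 and 14.2 CPM in PC9R, against 24.4 and 6.34 CPM in PC9; COL1A1 was the 1 of 2 tested that rose (1.31), and DCN was at 0. For CDH5 and COL1A1 the lines overlapped. The part of such markers in the results above was not tested.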

How the data were processed

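The 6 genes, the gene lists and the tests were chosen with earlier results of these data known. The authors deposited whole-number counts per RefSeq accession for 4 RNA libraries, and 4 peak lists with a score per peak whose scale is not stated. The submitters' processing notes name MACS2, TopHat, HTSeq, DESeq and hg19 without role or version. The sources used here give no peak threshold, counting mode or use of strand. Counts of the 42811 accessions (41556 matched) were summed per gene, with names only from the RefSeq table of GRCh38.p14. Gene models were GENCODE 44 lifted to GRCh37. All genes were fitted in R 4.3.3 by edgeR 4.0.16 (two-sided quasi-likelihood F test after TMM and filterByExpr, without a block). A fold change is PC9R minus PC9 on the log2 scale, and its SE is the fold change over the root of F. Library order as a model term, RLE and upper quartile scaling, no filter, single accessions, leaving out each library and DESeq2 1.42.0 were alternatives. The edgeR script was tested on simulated data. Within-pair folds have exact 95% intervals that cover counting error only, as do the limits from 3 counts. P-values reflect only the library-to-library spread, possibly technical.

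Peaks were assigned to a TSS within 1 kb and counted within 50 kb, and other windows (0, 2, 25 and 100 kb, and 5 kb added after the peaks were seen) were tried. Assignment to any annotated start of a gene was tried too. Seed matches were counted in the 3′ UTR of 1 representative transcript per gene, and 8-base and 6-base forms and the longest UTR were tried. Promoter sequences came from RefSeq; HMGA1, LIN28B, IGF2BP2 and IGF2BP3 matched by symbol, and HMGA2 and IGF2BP1 are named only. Genes named were the 6; per list up to 3 called genes, or up to 3 called with library order in the model and of 1 sign in both pairs; the 3 genes nearest in pattern; and neighbouring or overlapping genes.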

Additional observations from a re-analysis of the deposited data

How the results depend on the processing

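Each line has 2 RNA libraries and 1 list per mark, so the RNA values rest on few libraries and the peak values have no replicate check. The 32 genes called became 2631 with the replicate block (library order), 440 with no filter, 377 with DESeq2, 83 to 254 without 1 library, and 0 with upper quartile scaling, where 919 had an unadjusted p under 0.05 by edgeR. RLE scaling gave 41. First and second libraries share only a number; their differences correlated at 0.788 between the lines. The 0 calls in the pathway lists became 20 with the block, 4 with no filter, 2 with DESeq2 and 0 to 3 without 1 library. The number of genes with DHS within 1 kb in PC9R only, 4, became 1 at the TSS base and 2 with equal list sizes; that with H3K4me2 in both lines, 4, became 2 at the TSS base. The ratio of DHS peaks within 50 kb was 3.43 (24 in PC9R against 7 in PC9). It turned to 0.714 (5 against 7) with equal list sizes, a setting that keeps 19648 PC9R peaks. All 5 genes with counts kept a negative fold change under 9 alternatives, except IGF2BP3 without the second PC9 library. All 6 kept a let-7 match with the 6-base form; 5 kept one with the 8-base form, and 5 in the longest UTR. For the other settings the cause was not tested.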
